A study of Mus musculus with 6 samples.

Results

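The genes described are 38 chemokines and chemokine receptors, 27 ligands and 11 receptors, of 18193 genes named on the array, and each was taken by its exact symbol in the probe annotation, which found all 38 through 58 of the 45037 probe sets tested. They were measured in mouse carotid arteries collected 14 days after a guide wire had stripped the endothelium, in 3 pools of vessels from non-transgenic mice (NTG) and 3 pools from SMC-IRF9-TG mice. The transgene places mouse IRF9, the DNA-binding subunit of the interferon-induced complex ISGF3, under the SM22α promoter, which is active in smooth muscle cells; several founder lines were made, and which of them gave the arrays is not stated in the labels. Both groups were wire-injured mice, of strain C57BL/6 by the labels and C57BL/6J by the study's methods. The methods also name them as male and 10 to 12 weeks old. Each pool held 3 to 5 vessels and gave 1 Affymetrix array from 400 ng of total RNA. Uninjured arteries are not compared here, so every difference is between 2 injured groups.

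Chemokines are small secreted proteins that guide migrating cells along a gradient by binding receptors coupled to G proteins. They are named for the spacing of their first cysteines (CC, CXC and CX3C), and most receptors bind several ligands while most ligands bind several receptors. In an injured artery they are known for recruiting monocytes, neutrophils and lymphocytes to the wall, and Cxcl12 with Cxcr4 is also known for recruiting smooth muscle progenitors to the neointima.

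Values are log2 levels after RMA, the Affymetrix method that corrects background, normalizes arrays and summarizes probes, and a difference is SMC-IRF9-TG minus NTG on that log2 scale, with its standard error (SE) from limma and n = 3 pools per group. For a gene with several probe sets, the one with the highest mean over the 6 arrays stands for the gene. A group mean under the lower quartile of its arrays (2.62 for NTG and 2.38 for SMC-IRF9-TG) is called near background, and the size of such a difference is not known. Levels of different genes are not set against each other, since each probe set has its own response.

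The arrays differed in ways other than genotype. Xist, the RNA of the inactive X chromosome, stood at 9.94 and 9.50 in NTG pools 1 and 2 and between 2.94 and 4.08 in the other 4 arrays, although the study's methods name male mice. The sex of the mice in those 2 pools is thus uncertain, and sex cannot be fully told apart from genotype. The spiked poly-A controls of SMC-IRF9-TG pools 1 and 2 averaged 5.03 and 4.55, and those of the other 4 arrays lay between 7.53 and 11.75, and the 3′ minus 5′ gap of Actb, a sign of RNA degradation or short labelled product, was 7.09 in NTG pool 2 and between 1.56 and 3.04 in the other 5 arrays. The Irf9 probe set read 4.75, 5.43 and 5.36 in NTG, against 5.46, 5.41 and 5.58 in SMC-IRF9-TG, a difference of 0.30 (SE 0.23, adjusted p = 0.436) that did not pass. Whether that probe set reads the transgene's transcript is not known here, so the array gives no check of the genotype labels.

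Of the 38 genes, 6 ligands and 3 receptors were higher in SMC-IRF9-TG arteries, none was lower and 29 did not pass. The ligands were Ccl2, Ccl12, Ccl9, Pf4, Cxcl12 and Cxcl16, and the receptors were Ccr1, Cx3cr1 and Cxcr4. As background, 2.37% of all probe sets were called higher and 0.373% lower. Among the representative probe sets of all genes 3.11% were higher and 0.511% lower, against 9 of 38 members higher (23.7%). The median difference was 0.36 over the members and -0.05 over all representative probe sets. The count of 0 lower is from limma, by which Ccl20 and Ccr6 were lower at an unadjusted p under 0.05. At that level limma gave 2 of 38 members lower, against 1784 of all 18193 genes, and 12 higher, against 2706. The methods' t-test also gave 0 lower after adjustment, with 2 at that unadjusted level. The 3 pools of each group did not overlap in 12 members on the higher side and 4 on the lower, while 16.1% of all genes separated upward and 16.1% downward. In pooled vessels, more cells of a type and more RNA per cell cannot be told apart.

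**Figure D1:**
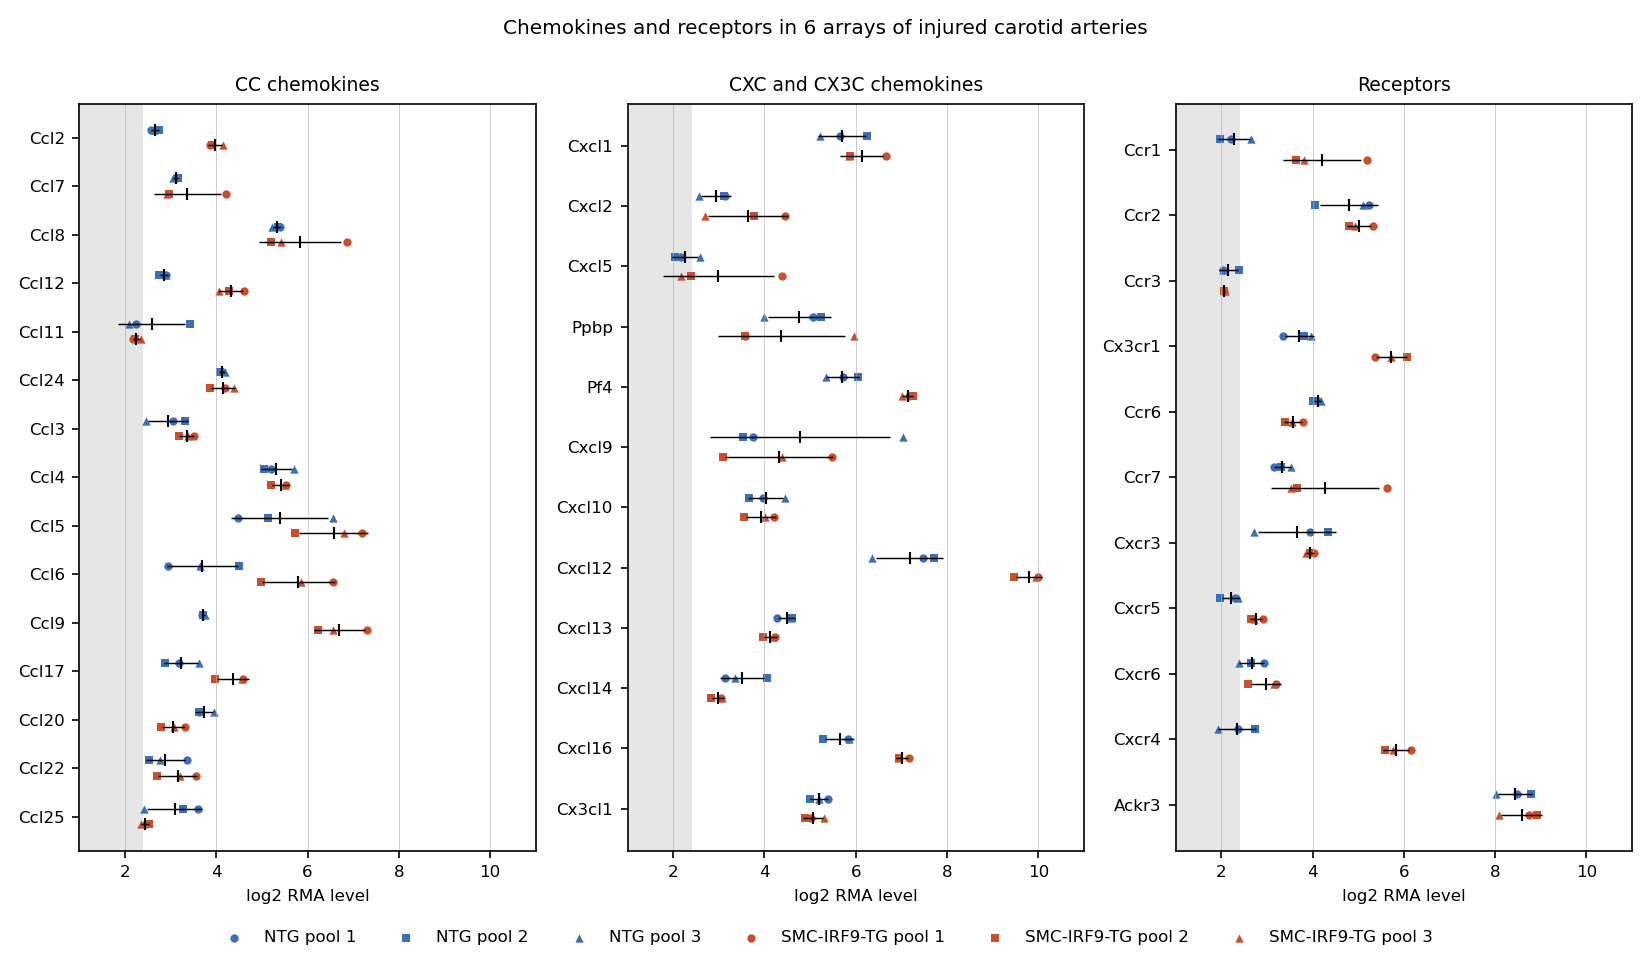
Log2 RMA level (x axis) of the 27 ligands and 11 receptors in each of the 6 arrays; blue points are NTG pools, orange points SMC-IRF9-TG pools, the black mark and bar give the mean ± SD (n = 3), and the grey band ends at 2.38, the mean lower quartile of the SMC-IRF9-TG arrays. The orange points of Ccl9, Cxcl12, Cx3cr1 and Cxcr4 lie clear of the blue ones, and those of Cxcl10, Ccl4 and Ackr3 lie among them.

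The number of calls depended on which pools were included, for the members as for the whole array. Without SMC-IRF9-TG pool 1, 2 or 3, limma called 4, 4 and 5 members higher, and without NTG pool 1, 2 or 3 it called 7, 9 and 9. Over all 45037 probe sets, 1069 were higher with all pools, and 371, 297 and 414 without SMC-IRF9-TG pool 1, 2 or 3. Without NTG pool 1, 2 or 3 they were 514, 1161 and 1268. The fall without a transgenic pool was thus not particular to the members. Cxcl12, Ccl9, Cx3cr1 and Cxcr4 passed in all 6 fits that left out 1 pool, Ccl12 in 4, Ccl2 and Cxcl16 in 3, Pf4 in 2 and Ccr1 in none. With a block for the 2 arrays of high Xist, which sets NTG pool 3 against the SMC-IRF9-TG pools, 2 members passed (Cxcl12 and Cxcr4), and with a block for the 2 arrays of low poly-A controls, which sets SMC-IRF9-TG pool 3 against the NTG pools, Cxcr4 alone passed. In both of these fits the difference of each of the 9 genes was above 0, from 1.16 for Cxcl16 to 3.91 for Cxcr4 in the first and from 1.20 for Ccl12 to 3.43 for Cxcr4 in the second. The pools of these 9 genes did not overlap between groups, so neither fit could have turned a sign.

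**Figure D2:**
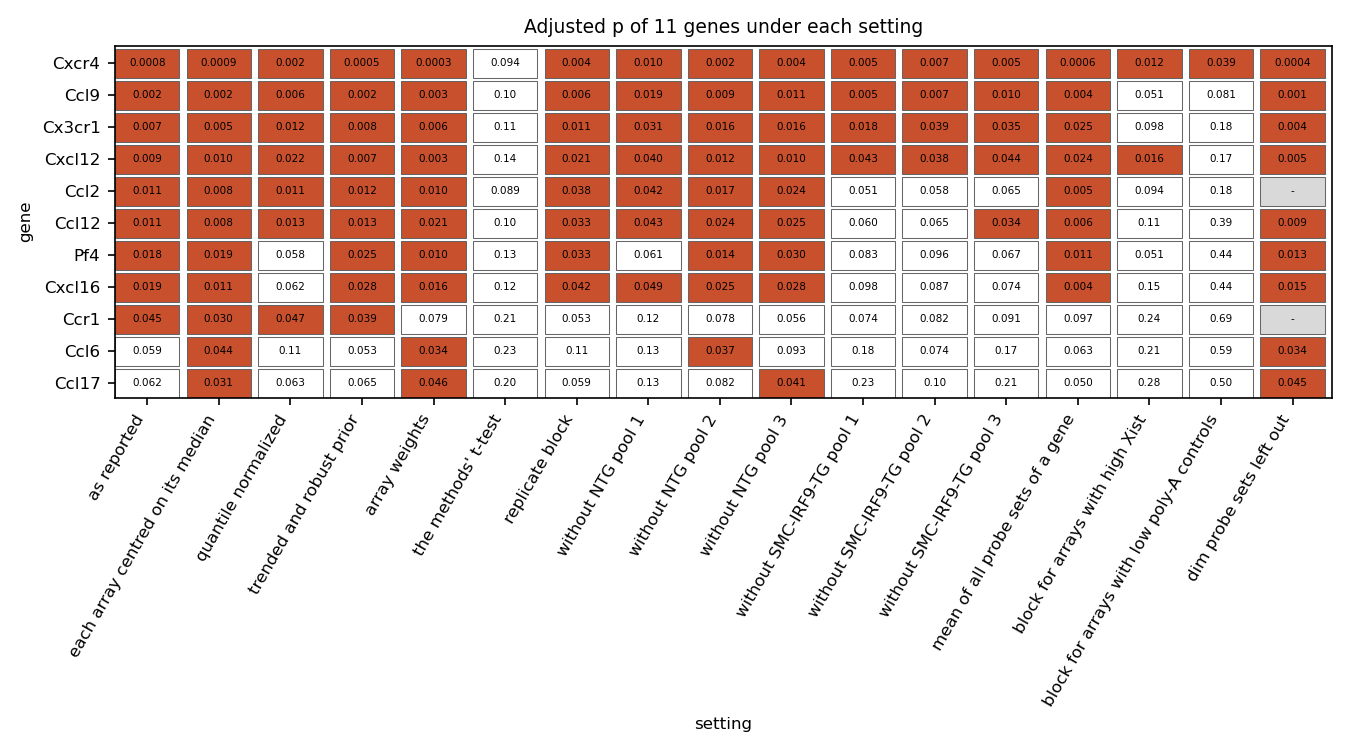
Adjusted p of 11 genes (y axis, the 9 called genes and then Ccl6 and Ccl17) under each setting (x axis); orange cells are under 0.05, white cells are not, and grey cells were filtered out before the fit. Cxcr4 is orange in every column but the methods' t-test, and Ccr1 turns white whenever any 1 pool is left out.

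Of 6 CC ligands listed here under the monocyte receptor Ccr2 and the eosinophil receptor Ccr3, 2 were higher. The list is a grouping, and receptor use by each mouse ligand was not tested. Ccl2, the classical monocyte attractant, read 2.57, 2.75 and 2.64 in NTG, against 3.87, 3.90 and 4.15 in SMC-IRF9-TG. The difference was 1.33 (SE 0.19, adjusted p = 0.0108), 2.51-fold, and the groups did not overlap. The NTG mean of 2.65 lay just above the near-background mark of 2.62, so the size of this fold is uncertain. Ccl2 also stands on the study's own list of chosen genes, so its direction is not independent evidence. Ccl12, a mouse relative of Ccl2 that also binds Ccr2, rose from 2.90, 2.74 and 2.90 to 4.60, 4.28 and 4.05, a difference of 1.46 (SE 0.21, adjusted p = 0.0114). On mouse chromosome 11 the genes Ccl2, Ccl7, Ccl11, Ccl12 and Ccl8 lie side by side. The other 3 of this row did not pass, with differences of 0.26 for Ccl7 (adjusted p = 0.653), -0.33 for Ccl11 (adjusted p = 0.556) and 0.50 for Ccl8 (adjusted p = 0.454).

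Ccl7 and Ccl8, 2 further members of that list, were high in a single pool. Ccl8 read 5.40, 5.35 and 5.22 in NTG, against 6.86, 5.20 and 5.42 in SMC-IRF9-TG. Ccl7 read 3.12, 3.16 and 3.05 against 4.22, 2.97 and 2.91. In both genes SMC-IRF9-TG pool 1 stood above the other 5 arrays, which overlapped. The eosinophil attractants showed no such transgenic pool: Ccl24 differed by 0.02 (SE 0.20, 95% interval -0.44 to 0.49), and Ccl11 and its receptor Ccr3 were near background in both groups.

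Of 5 further inflammatory CC ligands, Ccl9 was higher and Ccl6 fell just short. Ccl9, a mouse monocyte and dendritic cell attractant acting through Ccr1, read 3.68, 3.71 and 3.75 in NTG, against 7.31, 6.22 and 6.55 in SMC-IRF9-TG, a difference of 2.98 (SE 0.28, adjusted p = 0.00207) or 7.89-fold. The 3 NTG pools lay close together and far under the lowest transgenic pool. Its second probe set differed by 1.34 (adjusted p = 0.073) and did not pass, although its groups did not overlap either. Ccl6, the gene next to Ccl9 and another Ccr1 ligand, read 2.93, 4.49 and 3.65 against 6.56, 4.97 and 5.85, so that the lowest transgenic pool lay above the highest NTG pool. The wide spread within groups left its difference of 2.11 (SE 0.48) at adjusted p = 0.0586.

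The T cell and macrophage attractants Ccl3, Ccl4 and Ccl5 did not pass. Ccl5, an attractant of T cells and monocytes, read 4.47, 5.14 and 6.55 in NTG, against 7.20, 5.73 and 6.79 in SMC-IRF9-TG, with a difference of 1.19 (SE 0.54, adjusted p = 0.238). NTG pool 3 stood among the transgenic pools. Ccl3 differed by 0.41 (adjusted p = 0.348) and Ccl4 by 0.09 (adjusted p = 0.825), each with overlapping groups. On chromosome 11 Ccl5, Ccl9, Ccl6, Ccl3 and Ccl4 are consecutive protein-coding genes, and the differences along that row were 1.19, 2.98, 2.11, 0.41 and 0.09.

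The remaining CC ligands attract lymphocytes and dendritic cells, and 0 of 4 passed. Ccl17, a ligand of Ccr4, a receptor found on helper and regulatory T cells, read 3.18, 2.87 and 3.61 in NTG, against 4.58, 3.97 and 4.56 in SMC-IRF9-TG, a difference of 1.15 (SE 0.26, adjusted p = 0.0618) without overlap. Ccl22, which shares that receptor and lies close by on chromosome 8, differed by 0.27 (adjusted p = 0.587) with overlap. Ccl20, the attractant of Ccr6-bearing lymphocytes and dendritic cells, read 3.63, 3.61 and 3.95 against 3.31, 2.79 and 3.08, without overlap on the lower side (difference -0.67, SE 0.22, adjusted p = 0.135). Its receptor Ccr6 read 4.13, 4.02 and 4.18 against 3.79, 3.40 and 3.55, also without overlap (difference -0.53, SE 0.19, adjusted p = 0.168). Neither passed, and these are the 2 members lower at an unadjusted p under 0.05. Ccl25, an attractant of gut-homing T cells, differed by -0.65 (adjusted p = 0.236), and it passed as lower only when NTG pool 3 was left out (adjusted p = 0.0463).

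**Figure D3:**
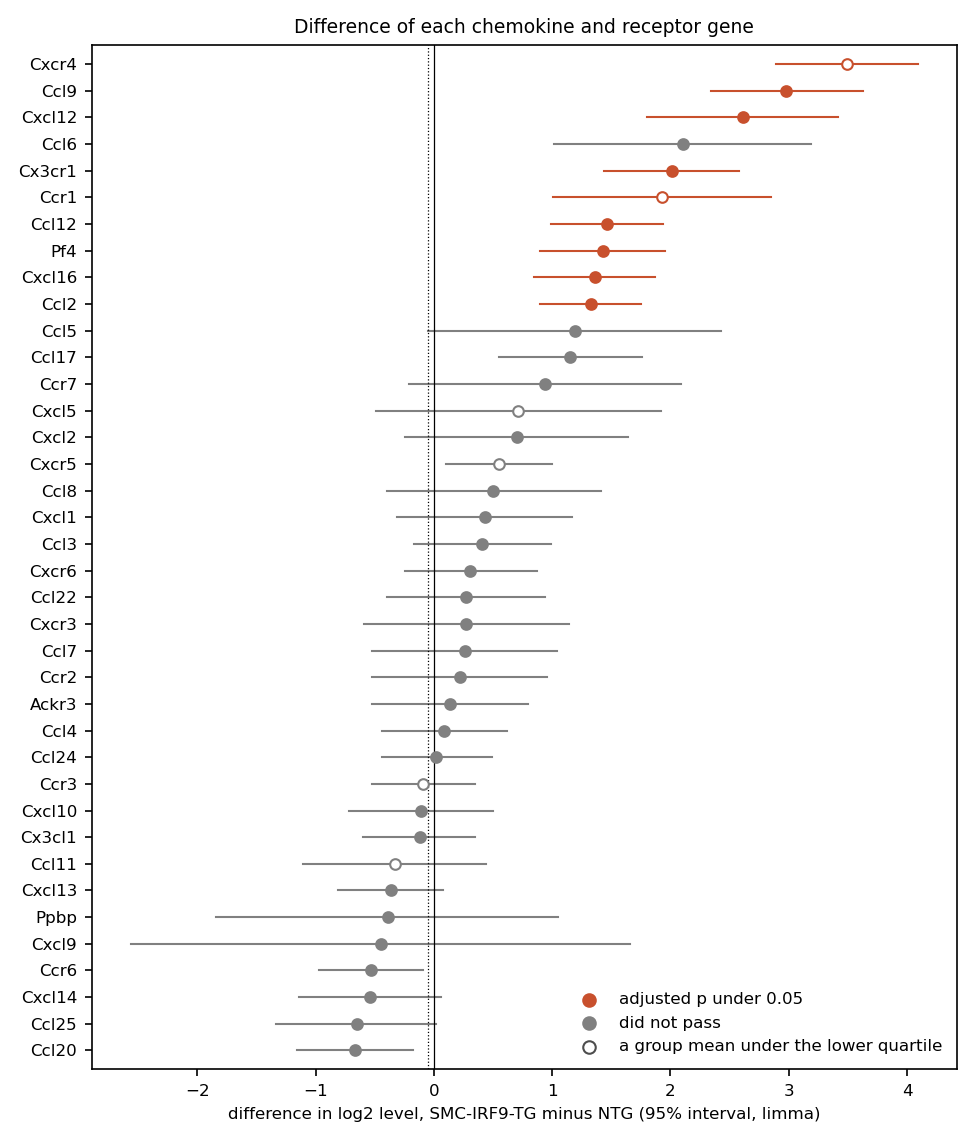
Difference of each gene's representative probe set (x axis, log2 units, SMC-IRF9-TG minus NTG, n = 3 pools per group) with its 95% interval from limma; orange points passed an adjusted p of 0.05, white-filled points have a group mean near background, and the dotted line is the median of all genes at -0.05. The intervals run from 1.80 to 3.42 for Cxcl12 and from -2.56 to 1.66 for Cxcl9, the widest of all.

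Among the CXC ligands, Cxcl12, Cxcl16 and Pf4 were higher. Cxcl12, the ligand of Cxcr4 and Ackr3 that retains stem cells and guides progenitors, read 7.47, 7.72 and 6.35 in NTG, against 9.99, 9.46 and 9.94 in SMC-IRF9-TG. The difference was 2.61 (SE 0.35, adjusted p = 0.00921), 6.12-fold, and NTG pool 3 was the lowest of the 6. A second probe set rose by 1.99 (SE 0.32, adjusted p = 0.0181), while the dimmest, at a mean of 2.88 in NTG and 2.37 in SMC-IRF9-TG arteries and so near background in the latter, differed by -0.50 (adjusted p = 0.28). Cxcl16, a transmembrane chemokine that also acts as a scavenger receptor, read 5.82, 5.28 and 5.85 against 7.16, 6.95 and 6.92, a difference of 1.36 (SE 0.22, adjusted p = 0.0186), and its second probe set rose by 1.92 (SE 0.21, adjusted p = 0.00401). Pf4, the platelet and megakaryocyte chemokine also made by macrophages, read 5.73, 6.06 and 5.34 against 7.16, 7.25 and 7.01, a difference of 1.43 (SE 0.23, adjusted p = 0.0177).

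Ppbp, the other platelet chemokine and the gene next to Pf4 on chromosome 5, did not pass. Its levels were 5.06, 5.25 and 3.98 in NTG, against 3.58, 3.57 and 5.97 in SMC-IRF9-TG, a difference of -0.39 (SE 0.63, adjusted p = 0.718). SMC-IRF9-TG pool 3 was the highest of the 6 arrays and the other 2 transgenic pools the lowest. Of 5 platelet and megakaryocyte marker genes measured, 0 passed.

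Of the neutrophil attractants that act through Cxcr2, 0 of 3 passed. Cxcl5 read 2.17, 2.04 and 2.59 in NTG, against 4.39, 2.39 and 2.18 in SMC-IRF9-TG. Cxcl2 read 3.14, 3.12 and 2.56 against 4.45, 3.77 and 2.70. Cxcl5 was high in SMC-IRF9-TG pool 1, Cxcl2 lay above all NTG pools in pools 1 and 2, and in both genes pool 3 lay among the NTG pools. Cxcl1 differed by 0.43 (adjusted p = 0.436) in its brightest probe set, and by up to 1.65 (adjusted p = 0.156) in its dimmest, where the groups overlapped. S100a8, an abundant neutrophil calcium-binding protein, read 3.42, 4.07 and 2.56 in NTG, against 8.83, 9.99 and 4.34 in SMC-IRF9-TG. S100a9 read 2.88, 4.05 and 3.28 against 7.41, 8.71 and 3.56. Of other neutrophil markers, Mpo differed by 1.24, Csf3r by 0.45 and Elane by -0.29. The mean level of 6 neutrophil markers ran from 3.31 to 3.56 in the NTG pools and from 3.54 to 5.60 in the transgenic ones, and 0 of 6 passed. Their part in the values of these ligands was not tested. Cxcr2 itself, the receptor of these ligands and 1 of the 6 markers, differed by -0.40 (adjusted p = 0.248).

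The interferon-inducible ligands of Cxcr3, which recruit activated T cells and are textbook targets of interferon signalling, did not pass. Cxcl10 read 3.97, 3.66 and 4.44 in NTG, against 4.20, 3.55 and 4.01 in SMC-IRF9-TG, a difference of -0.11 (SE 0.27, 95% interval -0.72 to 0.50, adjusted p = 0.82). Cxcl9 read 3.76, 3.52 and 7.04 against 5.47, 3.10 and 4.39, a difference of -0.45 (SE 0.93, adjusted p = 0.779). In both genes the highest array was NTG pool 3, by far for Cxcl9, and the groups overlapped. The Cxcl9 interval reaches from -2.56 to 1.66, so neither a large fall nor a 2-fold rise is outside it. Cxcr3, their receptor on T cells, differed by 0.27 (SE 0.38, adjusted p = 0.672).

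Because the transgene encodes a factor that binds interferon-stimulated response elements, the promoters of the members were searched for 4 motifs on both strands in RefSeq sequence (GRCm38.p6, 250 bases before to 50 after each start), which holds 28 of the 38 genes and 7 of the 9 called ones. The interferon-stimulated response element (ISRE, here GAAA and GAAA with any 2 bases between them) matched in Cxcl10 and Cxcl14, in 0 of the 7 called genes, and in 3.44% of all 32851 promoters. The AP-1 element (TGA and TCA with any base between) matched in Ccl9, Ccr3, Cxcl9, Cxcl10 and Ppbp, and in 7.81% of all promoters. The kB element (GGGA and TTCC with any 2 bases between) matched in Cxcl1, Cxcl2, Cxcl10 and Ccr3, and in 1.47%. The GAS element (TTC and GAA with any 3 bases between), the site of STAT dimers, matched in Ccl17, Ccr6 and Cxcl14, and in 8.3%. Of the 7 called genes with a promoter, Ccl9 alone held any of the 4 motifs, an AP-1 element. A match is a run of letters and says nothing of binding, and a promoter without one may hold other forms of the same element. With an ISRE in 3.44% of all promoters, a count of 0 in 7 called genes cannot show a difference from other genes.

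The promoters of 3 genes are printed 5′ to 3′ as examples of matches. They are the 2 with an ISRE, whose genes did not pass, and that of Ccl9, the called gene with an AP-1 element. They were picked by their matches and calls, so no contrast is drawn from them. Capitals mark the matches, in Cxcl10 an ISRE, a kB and an AP-1 element in that order, in Cxcl14 a GAS element and then an ISRE, and in Ccl9 an AP-1 element.
Cxcl10 promoter, chr5:92348840-92349139, minus strand: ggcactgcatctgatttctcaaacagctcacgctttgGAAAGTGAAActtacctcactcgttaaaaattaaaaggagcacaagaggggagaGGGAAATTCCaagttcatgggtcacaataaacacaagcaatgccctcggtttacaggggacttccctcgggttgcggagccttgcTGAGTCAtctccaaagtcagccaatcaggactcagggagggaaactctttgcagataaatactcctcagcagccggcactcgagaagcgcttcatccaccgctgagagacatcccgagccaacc
Cxcl14 promoter, chr13:56296502-56296801, minus strand: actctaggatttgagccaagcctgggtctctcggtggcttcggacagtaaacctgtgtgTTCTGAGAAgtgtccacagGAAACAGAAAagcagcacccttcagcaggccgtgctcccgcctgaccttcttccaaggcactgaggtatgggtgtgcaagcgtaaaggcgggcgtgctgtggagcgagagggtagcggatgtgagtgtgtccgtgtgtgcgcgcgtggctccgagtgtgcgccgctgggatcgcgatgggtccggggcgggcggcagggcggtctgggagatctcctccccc
Ccl9 promoter, chr11:83578587-83578886, minus strand: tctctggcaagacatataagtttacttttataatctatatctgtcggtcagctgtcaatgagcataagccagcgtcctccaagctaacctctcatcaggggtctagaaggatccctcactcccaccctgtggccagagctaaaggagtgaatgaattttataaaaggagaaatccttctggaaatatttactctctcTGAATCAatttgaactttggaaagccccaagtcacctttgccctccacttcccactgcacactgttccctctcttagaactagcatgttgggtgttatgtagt

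Cxcl14, the second ligand with an ISRE above, is an attractant of monocytes and dendritic cells found in many epithelia. It read 3.13, 4.06 and 3.36 in NTG, against 3.05, 2.82 and 3.07 in SMC-IRF9-TG, lower without overlap but with a difference of -0.54 (SE 0.26) at adjusted p = 0.261. Cxcl13, the B cell attractant, separated the same way with a difference of -0.36 (adjusted p = 0.296), and its receptor Cxcr5, near background in NTG arteries, separated the other way with 0.55 (adjusted p = 0.164). Cx3cl1, the membrane-bound fractalkine of endothelium, read 5.39, 5.00 and 5.20 against 5.01, 4.89 and 5.31, a difference of -0.12 (SE 0.21, adjusted p = 0.731). A probe set of nearly the same mean level differed by 0.58 (SE 0.28, adjusted p = 0.254) with overlap, and the dimmer ones by -0.09 and -0.41.

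The receptors of monocytes and macrophages carried 2 of the 3 receptor calls. Cx3cr1, the fractalkine receptor of patrolling monocytes and tissue macrophages, read 3.36, 3.82 and 3.96 in NTG, against 5.38, 6.06 and 5.73 in SMC-IRF9-TG, a difference of 2.01 (SE 0.25, adjusted p = 0.00696) or 4.03-fold. Its second probe set stayed near 2 in every array, with a difference of -0.01. Ccr1, the receptor of Ccl9, Ccl6, Ccl3 and Ccl5, read 2.21, 1.98 and 2.65 against 5.19, 3.63 and 3.81. The groups did not overlap, and limma gave adjusted p = 0.0455 for a difference of 1.93 (SE 0.40) whose size is not known, since the NTG mean was near background. The other Ccr1 probe set was near background in both groups and differed by 0.08 (adjusted p = 0.848).

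Ccr2, the receptor that brings Ccl2-responsive monocytes into tissue, gave 2 answers by probe set. The probe set of highest mean read 5.23, 4.06 and 5.10 in NTG, against 5.32, 4.81 and 4.93 in SMC-IRF9-TG, a difference of 0.22 (SE 0.32, adjusted p = 0.691). A second read 3.65, 3.67 and 3.92 against 5.90, 5.09 and 5.69, a difference of 1.81 (SE 0.25, adjusted p = 0.00929), and another rose by 1.17 (SE 0.19, adjusted p = 0.0197). The dimmest was near background in both groups. Which parts of the transcript the 4 probe sets read is not known here, so the call of Ccr2 depends on the probe set chosen to stand for it. Over the 20 probe sets that do not stand for their gene, 4 were higher and 0 lower, and they belong to Cxcl12, Cxcl16 and Ccr2.

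**Figure D4:**
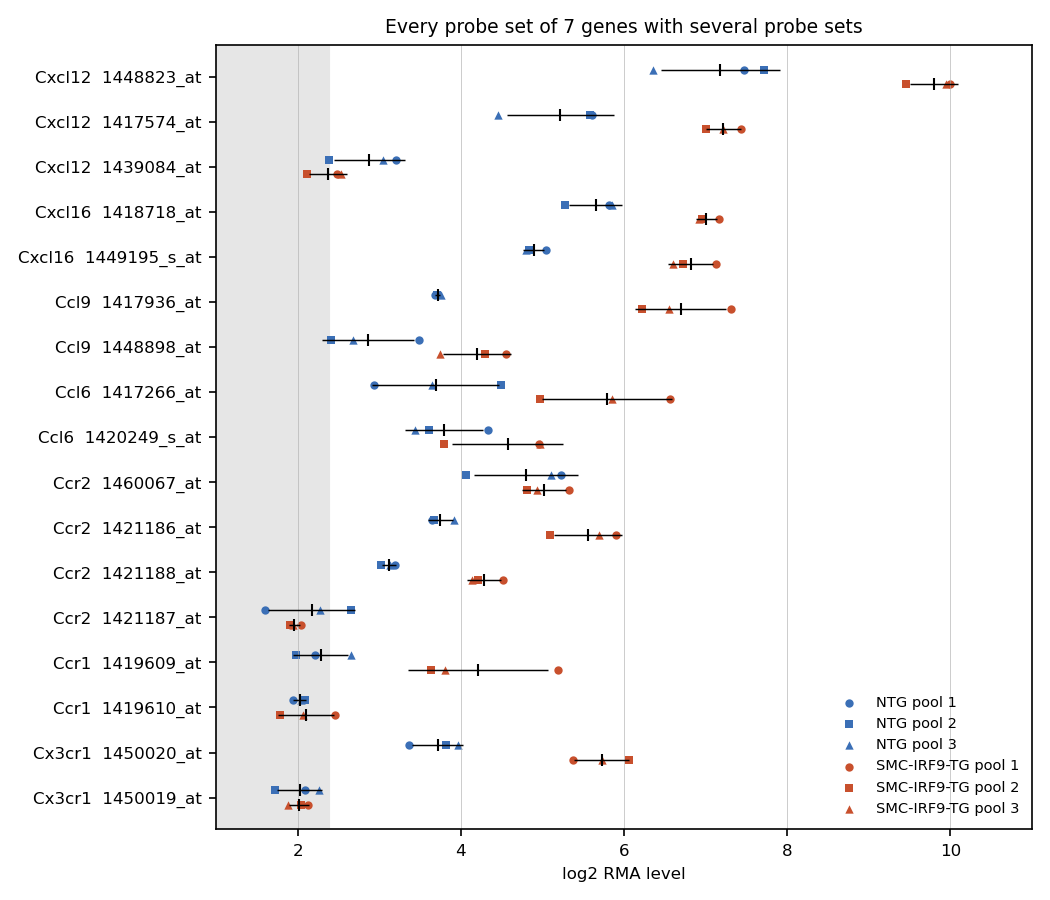
Log2 RMA level (x axis) of every probe set of 7 genes with more than 1, in each array; colours, marks and the mean ± SD bars (n = 3) are as in the plot of all members, and the grey band ends at 2.38. Both probe sets of Cxcl16 separate the groups, 2 of the 4 of Ccr2 do, and the second probe sets of Ccr1 and Cx3cr1 stay inside or next to the grey band in all arrays.

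Cxcr4 moved most by its fitted difference. The receptor read 2.36, 2.75 and 1.93 in NTG, against 6.15, 5.59 and 5.77 in SMC-IRF9-TG, and limma gave 3.49 (SE 0.26, adjusted p = 7.7e-04). All 3 NTG pools lay far below the lowest transgenic pool, but the NTG mean was near background, so the size is not known. Ackr3, the other receptor of Cxcl12, which takes the ligand up without activating G proteins, read 8.49, 8.79 and 8.03 against 8.74, 8.92 and 8.08, a difference of 0.14 (SE 0.29, 95% interval -0.52 to 0.80, adjusted p = 0.78). Cxcl12 and Cxcr4 were thus both called higher, and Ackr3 was not.

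The receptors of lymphocytes gave 0 calls of 5. Ccr7, which leads T cells and dendritic cells to lymph nodes, read 3.16, 3.32 and 3.53 in NTG, against 5.64, 3.66 and 3.53 in SMC-IRF9-TG, high in pool 1 alone (difference 0.94, SE 0.50, adjusted p = 0.294). Cxcr6, the receptor of Cxcl16, differed by 0.31 (SE 0.24, adjusted p = 0.445) with overlap. Set beside each other, the pairs in which ligand and receptor were both called were Cxcl12 with Cxcr4 and Ccl9 with Ccr1. The ligand alone was called in Ccl2 and Ccl12 with Ccr2, in Cxcl12 with Ackr3 and in Cxcl16 with Cxcr6. For Ccr2 this rests on the probe set chosen to stand for it, since others of its probe sets passed as higher. The receptor alone was called in Ccl3, Ccl5 and Ccl6 with Ccr1 and in Cx3cl1 with Cx3cr1.

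Within the transgenic group the pools did not weigh equally. SMC-IRF9-TG pool 1 held the highest of the 3 transgenic values in 27 of the 38 members (71.1%), against 38.2% of all genes, and pool 2 the lowest in 23 (60.5%), against 43.7%. Ccl7, Ccl8, Cxcl5, Ccr1 and Ccr7 are the 5 members in which pool 1 stood above all 5 other arrays by more than 1 log2 unit. Among the NTG pools, 7, 15 and 16 members were highest in pools 1, 2 and 3.

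Marker genes of other cells moved with the chemokines. Of 11 macrophage and monocyte markers measured, 8 were higher, with a median difference of 3.52, and their mean level ran from 4.01 to 4.37 in the NTG pools and from 6.96 to 7.26 in the SMC-IRF9-TG pools. Tyrobp, an adaptor of myeloid receptors, read 3.08, 2.62 and 4.21 against 8.81, 8.69 and 8.68, and C1qa, a complement gene of macrophages, read 2.49, 3.17 and 4.07 against 7.56, 8.25 and 8.18. Lyz2, the lysozyme of myeloid cells, rose by 5.05 (adjusted p = 0.00186). Mrc1, the mannose receptor of macrophages, was higher too (adjusted p = 0.00305), by a size not known since its NTG mean was near background. Fcgr1 (difference -0.40) and Mertk (0.03) did not pass, nor did Itgam (0.16), which was near background in both groups. Of 8 fibroblast markers 5 were higher, with mean levels from 6.91 to 7.29 against 8.82 to 9.25. Lum, a collagen-binding proteoglycan, rose from 6.25, 5.82 and 5.78 to 11.40, 11.40 and 10.93. The matrix genes Col1a1, Dcn and Col3a1 rose by 2.48, 1.84 and 1.71. Thy1 (difference 1.61), Pi16 (0.30) and Dpt (0.05) did not pass. Of 8 contractile smooth muscle markers 0 passed (mean levels from 8.74 to 9.75 and from 9.32 to 9.60), as did 0 of 8 T and NK cell, 0 of 6 B cell and 0 of 8 eosinophil and mast cell markers. Among dendritic cell markers 1 of 6 was higher, Itgax, and among endothelial markers 1 of 8, Tie1, while 1 of 5 adipocyte markers was lower, Pparg. None of the 5 lymphatic, 3 erythrocyte and 6 skeletal muscle markers passed. At an unadjusted p under 0.05 limma gave 3 higher neutrophil markers, 1 T and NK cell and 1 lymphatic marker higher. It gave 1 erythrocyte and 2 skeletal muscle markers lower, and 0 for the contractile smooth muscle, B cell, platelet and eosinophil and mast cell lists. Over all 18193 genes limma gave 2706 higher and 1784 lower at that level. The part of these cells in the chemokine differences was not tested.

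**Figure D5:**
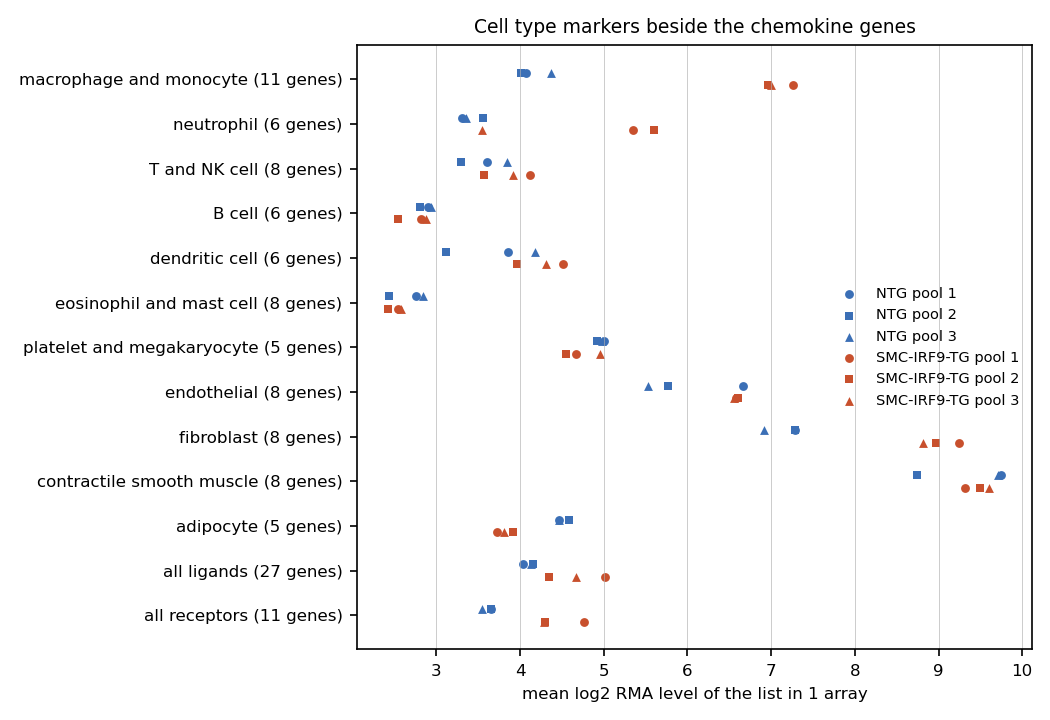
Mean log2 RMA level (x axis) of each marker list and of all member ligands and receptors in each of the 6 arrays; blue points are NTG pools and orange points SMC-IRF9-TG pools. The macrophage and monocyte list lies from 4.01 to 4.37 in NTG and from 6.96 to 7.26 in SMC-IRF9-TG pools, and the neutrophil list is high in SMC-IRF9-TG pools 1 and 2 only.

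Chemokines and receptors outside the 38 were not called higher. Of 23 others listed, 18 were measured, 0 were higher by limma (also 0 at an unadjusted p under 0.05) and 1 was lower, with a median difference of -0.27. The lower one was Ccr9, the gut-homing receptor of Ccl25, which read 3.61, 4.19 and 3.50 in NTG, against 2.50, 2.04 and 2.64 in SMC-IRF9-TG (difference -1.37, adjusted p = 0.0327). The 38 members were put together with results of these arrays known, and the 18 are those left, so the contrast between the 2 lists is a description.

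Downstream of the receptors, 27 of 30 listed signalling genes were measured, 4 were higher and 1 lower, with a median difference of 0.50. Rgs1, which switches off G proteins in leukocytes, read 3.69, 2.59 and 3.41 in NTG, against 5.83, 4.95 and 5.86 in SMC-IRF9-TG (difference 2.32, adjusted p = 0.0141). Arrb2, a β-arrestin that desensitizes receptors, rose by 2.17 (adjusted p = 0.00714), and Rac2, the Rac GTPase of blood cells, by 1.52 (adjusted p = 0.0241). Gnai3, a G protein subunit used by chemokine receptors, was higher by 0.94 (adjusted p = 0.0464). Pik3cd, a leukocyte phosphoinositide 3-kinase, was lower with a difference of -1.17 (adjusted p = 0.0444), from 11.92, 12.02 and 11.36 to 10.77, 10.32 and 10.69. Which transcript this probe set reads is not known here, so the fall may not be that of Pik3cd mRNA.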

How the data were processed

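Total RNA of 6 pools of wire-injured carotid arteries, 3 NTG and 3 SMC-IRF9-TG, was measured on Affymetrix mouse arrays. The authors deposited 1 log2 level per probe set and array, summarized by RMA; per the labels the software was Affymetrix Expression Console, with no version given in the sources used here. RMA compresses differences of dim probe sets, and no detection calls were used here. Of 45101 probe sets, 64 are Affymetrix controls; the remaining 45037 entered the test, dim ones included, of which 34945 name 1 gene, 932 several and 9160 none, and only the first were given a name. The comparison used limma 3.58.1 (lmFit, eBayes, 2-sided p) in R 4.3.3, and p-values were adjusted by Benjamini-Hochberg across the whole array, with 0.05 as threshold. The study's methods name a t-test for the whole paper and no array method, so the t-test was an alternative. An exact permutation test of 3 against 3 cannot give a 2-sided p below 0.1. The labels call the arrays biological replicates, and no 2 arrays were identical. The number of arrays limits the precision.

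The members, the marker and pathway lists and the alternatives were chosen with earlier results of these data known. The rule for named genes took all 38 members and, from each other list, up to 4 passing genes by size of difference, or the 2 of highest level where none passed. Departing from it after values were seen, those 2 were named for the neutrophil list only. Gnai3, Cxcr2, Csf3r, Mpo, Elane, Itgam, Fcgr1, Mertk, Thy1, Pi16 and Dpt were named beyond the rule. Motifs were chosen after the data were seen. The alternatives were median centring, quantile normalization, a filter on dim probe sets, array weights, a trended robust prior, averaging a gene's probe sets, the methods' t-test, blocks for replicate number, Xist and poly-A controls, and leaving out each pool. Scripts were tested on simulated data; Python 3.11.15, numpy 2.4.6, pandas 2.3.3 and matplotlib 3.10.9 made tables and figures.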

Additional observations from a re-analysis of the deposited data

How the results depend on the processing

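The 9 members called higher became 11 with each array centred on its median, 7 after quantile normalization, 9 of 24 measured without dim probe sets, 9 with a trended robust prior, 10 with array weights and 8 when a gene's probe sets were averaged. The methods' t-test called 0 members after adjustment, and 1 probe set in all. At an unadjusted p under 0.05 it gave 12 members higher and 2 lower, and its share over all genes at that level was not counted. The Xist block left 2 and the poly-A block 1. Leaving out 1 pool gave from 4 to 9 members higher and from 0 to 1 lower, and from 297 to 1268 of all probe sets higher. Same-numbered pools did not deviate together (r = -0.15, -0.0006 and 0.027), so the numbers do not pair the arrays; with the replicate block 8 members passed, without Ccr1. The difference of each called gene kept its sign in every setting in which it was measured. The groups did not overlap in these genes, so only centring, quantile normalization and averaging of probe sets could have turned it. Signs turned only in members that did not pass. With quantile normalization this held for Ccl24 (-0.028), Ccl4 (-0.18), Ccr3 (0.16) and Ackr3 (-0.13), and with centring for Ccr3 (0.0069). With the Xist block it held for Ccl11 (0.16), Ccl24 (-0.038), Ccl4 (-0.30), Ccl25 (0.016), Ppbp (0.39), Ccr2 (-0.086) and Ccr3 (0.036). With the poly-A block it held for Ccl7 (-0.20), Cxcl2 (-0.24), Cxcl5 (-0.093), Ppbp (1.20), Cx3cl1 (0.12) and Ackr3 (-0.36). Leaving out 1 pool moved the difference of Ccl7 from -0.17 to 0.49, Ccl8 from -0.012 to 0.82, Ccl11 from -0.58 to 0.084, Ccl24 from -0.10 to 0.16, Ccl4 from -0.044 to 0.28, Ppbp from -1.19 to 0.0079, Cxcl9 from -1.08 to 0.68, Cxcl10 from -0.29 to 0.10, Ccr2 from -0.15 to 0.44, Ccr3 from -0.15 to 0.032, Cxcr3 from -0.20 to 0.61 and Ackr3 from -0.062 to 0.39. The cause was not tested. Signal over background limits Ccr1, Cxcr4, Cxcl5 and Cxcr5, whose NTG means were near background, and Ccl11 and Ccr3, near it in both groups. It also limits the size for Ccl2, whose NTG mean of 2.65 lay just above the mark of 2.62.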
